A study of Mus musculus with 72 samples.

Results

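The genes Pomc, Cartpt, Mc3r and Mc4r were followed through 72 RNA-seq libraries of adult mouse hypothalamus. They were taken by name, with earlier results of these data known. All 4 of them were found in 10 of 10 deposited count tables, among 55401 gene identifiers listed in any table and 21749 listed in all. The series deleted 5 conserved noncoding elements, named E1 to E5, 1 per knockout line of B6 mice, because the elements had been linked to hibernation. The deposited tables name the lines after Fto. Each line had knockouts (KO) and wild types (WT), either fed or kept for 72 hours without food but with water, which gives 20 groups of 3 or 4 libraries. The labels give no sex, no age beyond adult, and no statement that each library was a separate mouse, so p-values measure the spread between libraries, which may be partly technical. Feeding states of E1 shared a single sequencing request, as did those of E3. In E2, E4 and E5 the fed and the fasted libraries came from different requests, so feeding and request cannot be told apart there.

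Pomc encodes pro-opiomelanocortin, which neurons of the arcuate nucleus cut into alpha-MSH and other peptides. Alpha-MSH acts on the receptors Mc3r and Mc4r in the hypothalamus to lower food intake and raise energy use, and Agrp, made by neighbouring neurons, opposes it at the same receptors. Cartpt encodes the CART peptides, which many arcuate Pomc neurons also make, as do other neurons of the hypothalamus and of the striatum. Pomc has a second main source next to the hypothalamus: corticotropes and melanotropes of the pituitary, which make ACTH and alpha-MSH from the same transcript. Food shortage is known to lower arcuate Pomc.

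In the mm10 build, Pomc (ENSMUSG00000020660) lies at chr12:3954951-3960642 on the plus strand and Cartpt (ENSMUSG00000021647) at chr13:99898489-99901091 on the minus strand. Mc3r (ENSMUSG00000038537) lies at chr2:172248492-172251114 on the plus strand. No other annotated gene overlaps any of the 4, so their counts have no antisense partner in this annotation.

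Both ligand genes have promoter sequence in RefSeq (build GRCm38.p6), and the stretches below are shown because these are the genes whose transcripts moved. For Pomc, 250 bases upstream of the start site are given, chr12:3954695-3954944, with the letters of the TATA box consensus in capitals. For Cartpt, 28 bases are given around the letters of the cyclic AMP response element consensus, in capitals, chr13:99900778-99900805 on the minus strand. This Cartpt stretch lies upstream of the RefSeq start site but inside the gene span given above. The sources thus place the start of Cartpt differently.
Pomc: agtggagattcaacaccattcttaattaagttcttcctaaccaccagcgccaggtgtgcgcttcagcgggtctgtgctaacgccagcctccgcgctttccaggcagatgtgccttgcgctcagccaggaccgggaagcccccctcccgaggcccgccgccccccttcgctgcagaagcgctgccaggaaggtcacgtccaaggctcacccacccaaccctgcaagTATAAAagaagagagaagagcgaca
Cartpt: cggcgggcatTGACGTCAaacggcagcg
The motif TATAAA ends 19 bases before the Pomc start site and TGACGTCA ends 104 bases before that of Cartpt. On either strand, TATAAA was found in 12.4% and TGACGTCA in 1.55% of 32851 RefSeq promoters of the same 250 bases. CACGTG (6.02% of promoters) and GTAAACA (3.17%) had no match in the Pomc, Cartpt or Mc3r windows. The matches describe letters only; no binding was measured.

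Levels are given as scaled CPM, the count as a share of the library total after scaling all 72 libraries to each other by TMM. Library totals ran from 5517552 to 39999368 counts with a median of 20890991; the lowest was KO 1 of the fasted E4 group and the next lowest 14310904. All 7 hypothalamus markers (Nkx2-1, Sim1, Otp, Hcrt, Pmch, Oxt and Avp) were present in every library, each at 4.88 scaled CPM or more. Their sum was 122 to 287 scaled CPM in E3, against a median of 370 over all libraries. Choroid plexus markers reached 694 and striatum markers 254 scaled CPM in E3, against at most 18.3 and 34.3 in E1. The CART gene was the most abundant of the 4 per length: medians over libraries were 24.9 scaled CPM per kilobase of exon for Cartpt, 12.6 for Pomc, 1.4 for Mc3r and 0.724 for Mc4r. The receptors rested on few reads. Mc3r had 12 to 163 counts per library and Mc4r 5 to 118, whereas Pomc had 40 to 45130 and Cartpt 121 to 2165.

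Ranked by group median, Pomc ran from 624 scaled CPM in fasted E2 WT down to 3.63 in fed E3 KO. Cartpt spanned 38.1 (fasted E5 WT) to 12.3 (fed E3 KO), Mc3r 5.56 (fasted E5 KO) to 1.73 (fasted E3 KO), and Mc4r 3.54 (fasted E3 WT) to 1.32 (fasted E2 WT). The ranges of neighbouring groups in this order overlapped in 19 of 19 neighbour pairs for Pomc, Mc3r and Mc4r. For Cartpt they overlapped in 18 of 19; the exception was the step from fasted E1 WT (23 to 25.5) to the group ranked next, fed E3 WT (11.8 to 15.2). All 4 E3 groups held the 4 lowest Pomc medians, 3.63 to 6.45. Fed E3 libraries ranged from 3.2 to 6.9 scaled CPM of Pomc, against a median of 20.9 (2.76 to 43.9) over the 32 fed libraries of the other lines. Fasted E3 libraries had 2.9 to 6.15, a range that met that of fasted E1 libraries, 5.14 to 10.8. Line E3, its sequencing request and its lower hypothalamus marker sum moved together, and their part was not tested.

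**Figure D1:**
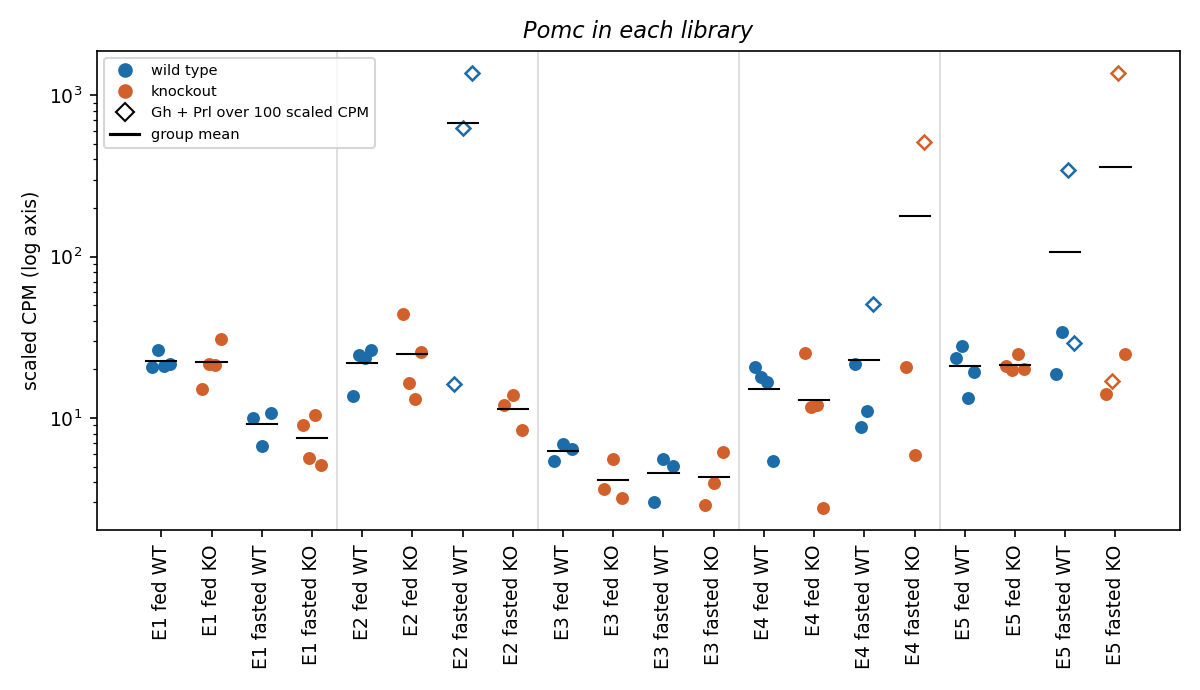
Pomc in scaled CPM (log axis) in every library, by line, feeding and genotype; lines mark group means and open diamonds the libraries with Gh + Prl over 100 scaled CPM. The 5 libraries at 345 or above are all open diamonds from fasted groups, and the E3 libraries lie at 2.9 to 6.9.

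Pomc was checked against pituitary transcripts because part of the gland can be left attached to a dissected hypothalamus. Growth hormone (Gh) and prolactin (Prl), the chief products of pituitary somatotropes and lactotropes, together exceeded 100 scaled CPM in 9 libraries, all of them fasted. These were WT 1, 2 and 3 of E2, WT 4 and KO 3 of E4, and WT 3, WT 4, KO 2 and KO 3 of E5. Pomc in those 9 libraries ranged from 16.2 to 1380 with a median of 345. In the other 63 it ranged from 2.76 to 43.9 with a median of 13.8, and Gh + Prl had a median of 0.0483 and a maximum of 55. In 29 libraries neither Gh nor Prl had a read; Pomc was still present in each of them, at 2.76 to 27.9 scaled CPM.

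The amount of Pomc did not follow Gh + Prl in a fixed proportion. WT 3 of fasted E2 had 1380 Pomc beside 5710 Gh + Prl, and KO 3 of fasted E5 had 1370 beside 19500. WT 2 of fasted E2 had 624 beside 11800, KO 3 of fasted E4 had 512 beside 6530, and WT 3 of fasted E5 had 345 beside 4600. WT 1 of fasted E2 stood out in the other direction, with 1290 Gh + Prl and only 16.2 Pomc. Pomc per 100 units of Gh + Prl was thus 24.2 in WT 3 and 1.26 in WT 1 of the same group. Tbx19, the transcription factor that defines pituitary Pomc cells, reached 16.9, 12.9, 8.77 and 16.3 in WT 2 and WT 3 of fasted E2, KO 3 of fasted E4 and KO 3 of fasted E5. Tbx19 was 2.96 in WT 3 of fasted E5, 1.24 in WT 1 of fasted E2, and at most 1.87 in the 63 other libraries. Pax7, a melanotrope factor, was 11.6 to 13.9 in the 4 libraries of highest Tbx19. It also reached 10 scaled CPM in 1 fed E3 library with Pomc of 5.42, so by itself it did not mark high Pomc.

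**Figure D2:**
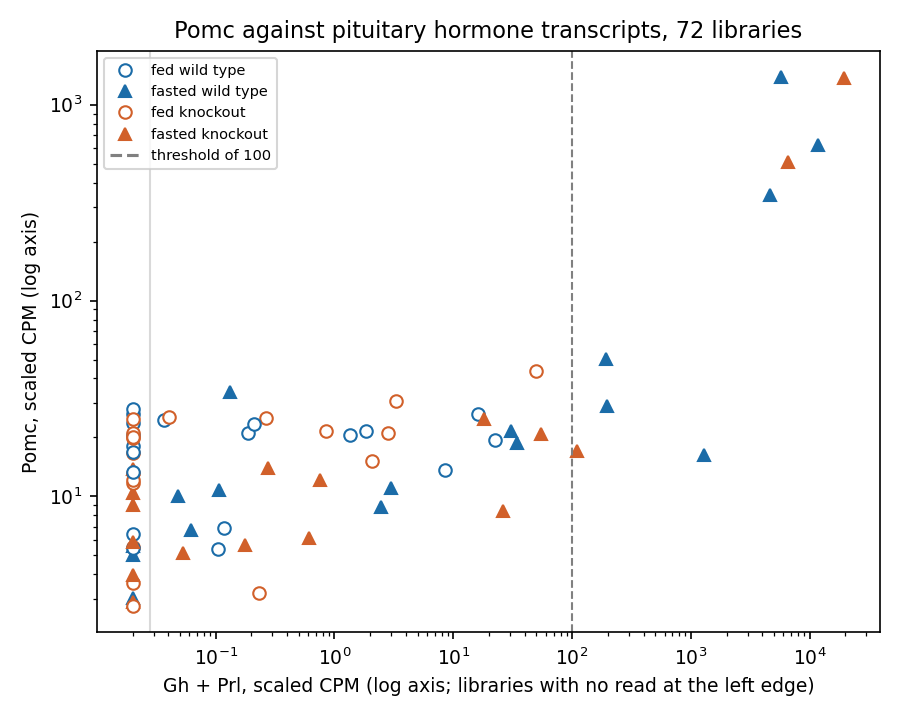
Pomc against the sum of Gh and Prl, both in scaled CPM on log axes, 1 point per library; libraries without a Gh or Prl read stand at the left edge and the dashed line marks 100. The 5 libraries with Gh + Prl of 4600 or more hold 345 to 1380 scaled CPM of Pomc, and the library at 1290 holds 16.2.

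Whether loss of an element altered these genes was asked in each line and feeding state. No member was called in any of the 10 comparisons of KO with WT (0 of 40 tests; edgeR quasi-likelihood test, adjusted p under 0.05), and 0% of all genes were called in each. At an unadjusted p under 0.05 there were 3 of the 40, all of Pomc: fasted E2, fed E3 and fasted E4. In those comparisons 1512 of 20243, 1422 of 14602 and 1684 of 17929 genes had such a p. DESeq2 called 1, Pomc in fasted E2, where it called 109 genes. With both feeding states of a line joined, 0 of 20 member tests were called (0% of genes), 0 of 20 reached an unadjusted p under 0.05, and DESeq2 called 0. In the authors' deposited tables, which cover 8 of the comparisons, the adjusted p of every member was 1.

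In fed mice the Pomc estimates between genotypes ran from -0.61 to 0.20 on the log2 scale. Fed E1 WT libraries had 20.7, 26.3, 21 and 21.6 scaled CPM and fed E1 KO libraries 15.2, 21.7, 21.2 and 30.8. The KO range enclosed the WT range, and the log2 change was -0.01 (95% interval -0.35 to 0.32, adjusted p = 0.992). Fed E3 WT libraries had 5.42, 6.9 and 6.45, and fed E3 KO libraries 3.63, 5.54 and 3.2. Here 1 KO library lay inside the WT range; the log2 change was -0.61 (SE 0.241) and its adjusted p was 0.483. Fed E4 held the lowest Pomc of any library, 2.76 in KO 4 (others 25.2, 11.7 and 12.1), and its WT 4 had 5.44 beside 20.7, 18 and 16.8. Group means in the other fed lines were 22 ± 5.72 against 24.8 ± 13.8 in E2 and 21 ± 6.2 against 21.5 ± 2.29 in E5 (WT against KO, SD, n = 4 each).

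In fasted mice the largest genotype estimates of Pomc were those of the lines with pituitary transcripts. Fasted E2 WT libraries had 16.2, 624 and 1380 and KO libraries 12.1, 13.8 and 8.41; the groups did not overlap. The log2 change was -5.91 (SE 1.37) with an adjusted p of 0.66 by edgeR and 0.00376 by DESeq2. All 3 WT libraries were over the Gh + Prl threshold and none of the KO libraries was, so genotype and pituitary transcripts cannot be told apart in this group. Without WT 1, the WT library of lowest Pomc, the estimate was -6.47 (adjusted p = 0.0147). That fit called 71 genes, where the fit on all libraries called 0. Fasted E4 gave a log2 change of 2.99 (adjusted p = 0.496). It was -1.11 without KO 3 and -0.34 without both libraries over the threshold. Both of these fits rest on 2 KO libraries. KO 1, the library of lowest total in the series, is among them, and its Pomc was 20.8 scaled CPM but 12.1 CPM of its own total. Its top 10 genes held 36.3% of its counts, against 9.02% in fasted E2 WT 3, the next highest library. With no filter on low counts the E4 estimate of 2.98 had an adjusted p of 0.00185, and 169 genes were called. Fasted E5 gave 1.72 (adjusted p = 0.758), which became -2.51 without KO 3 and -0.44 without the 4 libraries over the threshold. Fasted E1, which had almost no pituitary transcript, gave -0.28 (95% interval -0.88 to 0.31), and fasted E3 -0.06 (-0.82 to 0.70).

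**Figure D3:**
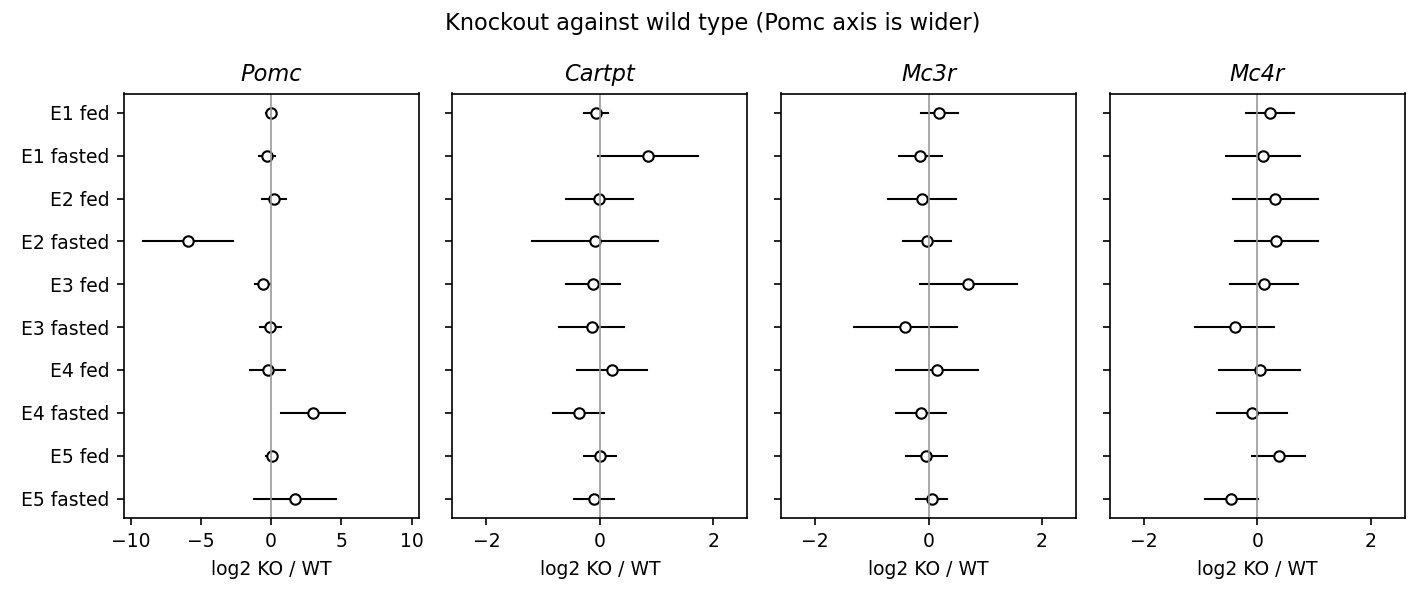
Log2 ratio of KO to WT for each member in 10 comparisons, with 95% intervals from the edgeR quasi-likelihood test; filled points would mark adjusted p under 0.05 and all are open. The Pomc axis is wider, and its estimates of -5.91 and 2.99 belong to fasted E2 and fasted E4.

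Cartpt had log2 changes between genotypes from -0.12 to 0.21 in the fed mice of the 5 lines, none of them called. The largest estimate was in fasted E1, where WT libraries had 25.5, 24.3 and 23 scaled CPM and KO libraries 85.2, 39.8, 25.6 and 23.8. KO 1 held the highest Cartpt of all 72 libraries, while KO 3 and KO 4 lay near the WT values. Pax7 was 5.85, 3.86, 0.866 and 0.964 scaled CPM in KO 1 to KO 4 and 0.966 to 2.34 in the WT libraries; its part was not tested. The log2 change was 0.84 (SE 0.396, 95% interval -0.04 to 1.73, adjusted p = 0.954), and leaving out 1 library at a time moved it between 0.28 and 1.06. In fasted E2, WT 3 had 66.4 of Cartpt beside 27.6 and 16.9 in the other WT libraries, so the 2 highest Cartpt values of the series were each a single library of its group.

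Mc4r (ENSMUSG00000047259) lies at chr18:66857704-66860506 on the minus strand of mm10. Mc3r and Mc4r estimates between genotypes ranged from -0.41 to 0.70 and from -0.46 to 0.38 on the log2 scale. For Mc3r the largest was in fed E3: WT 2.16, 2.24 and 0.742 scaled CPM, KO 2.58, 2.99 and 2.85. The groups did not overlap, but WT 3 rested on 13 counts, and the log2 change of 0.70 (SE 0.377) had an adjusted p of 0.576. Mc4r in fasted E5 was 2.55, 2.93, 2.21 and 2.93 in KO and 2.7, 5.18, 3.62 and 3.14 in WT, with overlapping ranges, a log2 change of -0.46 (SE 0.217) and an adjusted p of 0.678. In fed E5 the Mc4r estimate was 0.38, of opposite sign. The test of whether the genotype effect differed between feeding states gave -0.86 (SE 0.31) and an adjusted p of 0.797. Of the 20 such interaction tests on members, 0 were called and 4 had an unadjusted p under 0.05. DESeq2 called 1, Pomc in E2, where it called 25 genes. The 4 at an unadjusted p under 0.05 were in E1, E2, E4 and E5, where 1233 of 15222, 1320 of 20452, 2168 of 19393 and 1150 of 19319 genes had such a p. Over all genes the interaction called 1.34% in E3 and 0% in E1, E2, E4 and E5.

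Fasting could be tested in E1 and E3, where both states shared a sequencing request. Pomc fell with fasting in both genotypes of E1. WT libraries went from 20.7, 26.3, 21 and 21.6 scaled CPM in fed mice to 10, 6.71 and 10.8 in fasted mice. KO libraries went from 15.2, 21.7, 21.2 and 30.8 to 9, 5.68, 10.4 and 5.14. In both genotypes every fasted library lay below every fed one. Pomc fell by 58.9% in WT (log2 change -1.28, SE 0.163, adjusted p = 0.00563), and it fell by 65.9% in KO (-1.55, SE 0.241, adjusted p = 0.000834). The background was 5.27% of genes called in E1 WT (2.3% higher, 2.97% lower) and 34.9% in E1 KO (18.3% higher, 16.6% lower). The 2 declines differed by -0.27 (95% interval -0.97 to 0.43, adjusted p = 0.809). Both were called whichever single library was left out, with adjusted p of at most 0.032 in WT and 0.00369 in KO.

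Other transcripts moved with Pomc in E1. Gh + Prl was 0.188 to 16.1 scaled CPM in the fed libraries and 0 to 0.176 in the fasted ones. The 7 pituitary hormone cell genes that could be matched, of 8, summed to 1 to 16.7 fed and 0.184 to 1.2 fasted. Among them Tshb had no read in any of the 72 libraries. Tbx19 was 1.07 to 1.56 fed and 0.161 to 0.805 fasted. The part of these pituitary transcripts in the decline was not tested. Arcuate genes other than Agrp and Npy (Ghrh, Kiss1, Tac2, Tbx3 and Prdm12) summed to 30.3 to 40 fed and 23.2 to 37 fasted, ranges that overlapped. Kiss1 had no read in any of the 72 libraries. Of 5 factors of Pomc neurons, Prdm12 (log2 change -0.66, adjusted p = 0.0325) and Nkx2-1 (-0.68, 0.0185) were called in E1 KO by the edgeR quasi-likelihood test. Tbx3 (-0.56), Isl1 (-0.35) and Nhlh2 (0.25) were not called there, and no factor was called in E1 WT. Of all genes, 34.9% were called in E1 KO and 5.27% in E1 WT. Prdm12, Nkx2-1 and Isl1 are named here after their values were seen. Hypothalamus markers summed to 323 to 453 fed and 197 to 366 fasted. Cortex and hippocampus markers were 13.9 to 41.9 fed and 37.1 to 334 fasted. In bulk tissue, fewer cells of a type and less RNA per cell cannot be told apart.

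In E3 Pomc did not pass the test. WT libraries had 5.42, 6.9 and 6.45 fed and 3.02, 5.58 and 5.03 fasted, and KO libraries 3.63, 5.54 and 3.2 fed and 2.9, 3.95 and 6.15 fasted. Both pairs of ranges overlapped. The log2 changes were -0.45 (SE 0.258, 95% interval -1.03 to 0.13, adjusted p = 0.251) in WT and 0.08 (SE 0.324, -0.65 to 0.82, adjusted p = 0.943) in KO. The background was 19.9% of genes called in E3 WT (11.5% higher, 8.43% lower) and 0.505% in E3 KO (0.491% higher, 0.0136% lower). Over the 27 libraries of both lines, with each line and genotype as its own stratum, Pomc fell by 47.5% (log2 change -0.93, SE 0.184, adjusted p = 0.000434; 32.7% of genes called). The test of the difference between lines was itself called for Pomc: the fasting change in E3 exceeded that in E1 by 1.24 (SE 0.285, adjusted p = 0.00437; 16.9% of genes called). The lines also differed in sequencing request, in sex as read from the transcript Ddx3y, in their fed level of Pomc and in their marker sums. These cannot be told apart from the line.

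**Figure D4:**
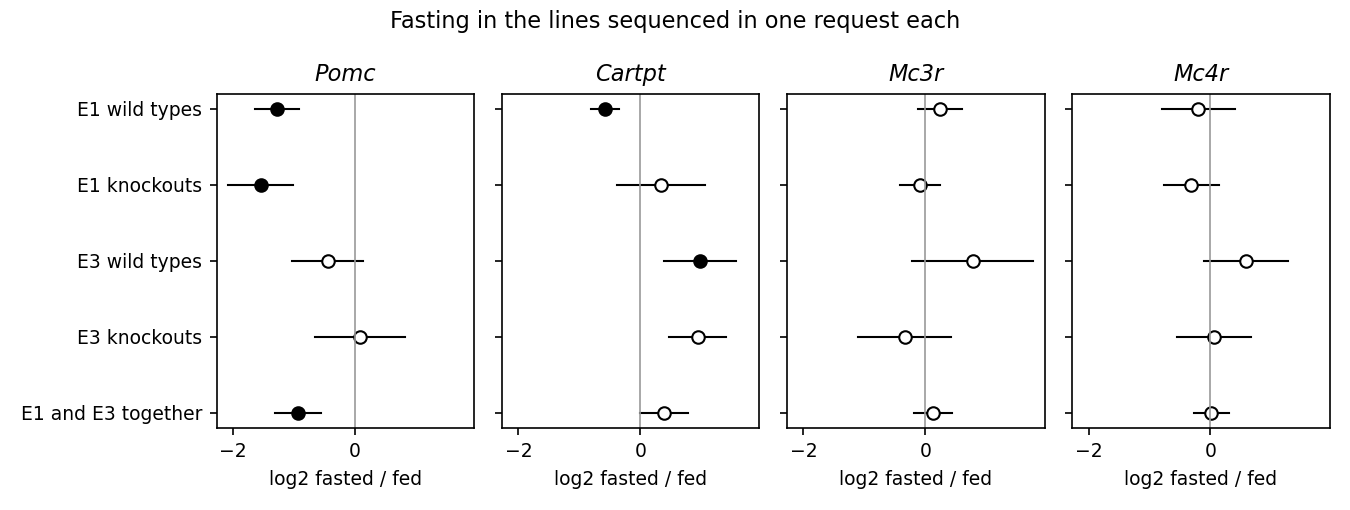
Log2 ratio of fasted to fed for each member in E1 and E3, by genotype and over both lines, with 95% intervals from the edgeR quasi-likelihood test; filled points have adjusted p under 0.05. Pomc is filled in E1 WT, E1 KO and both lines together, and Cartpt is filled below 0 in E1 WT and above 0 in E3 WT.

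Cartpt moved in opposite directions in the WT mice of the 2 lines. In E1 WT it fell by 33%, from 34.7, 42.3, 35.3 and 32.3 scaled CPM fed to 25.5, 24.3 and 23 fasted (log2 change -0.58, SE 0.101, adjusted p = 0.016). The groups did not overlap. In E3 WT it rose from 15.2, 15.2 and 11.8 to 17.5, 40.3 and 25, also without overlap (log2 change 0.99, SE 0.264, adjusted p = 0.0295). In E3 KO the values were 9.49, 17.3 and 12.3 fed and 24.8, 28.1 and 22 fasted; the log2 change of 0.94 (SE 0.209) had an adjusted p of 0.109 by edgeR and 0.00192 by DESeq2. E1 KO libraries, at 28.3, 35, 36.1 and 37.9 fed and 85.2, 39.8, 25.6 and 23.8 fasted, had a log2 change of 0.34 (SE 0.331, adjusted p = 0.447). Without fasted KO 1 it was -0.21. The genotypes of E1 differed in their Cartpt response by 0.92 (SE 0.424, adjusted p = 0.596).

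These Cartpt calls were near the threshold. The E1 WT call was lost without fasted WT 1 (adjusted p = 0.0566) or without fasted WT 2 (0.0688). The E3 WT call was lost without fed WT 1, 2 or 3 (0.0667, 0.0778 and 0.118) or without fasted WT 3 (0.0543). Over both lines Cartpt had a log2 change of 0.38 (SE 0.192, adjusted p = 0.125). The line difference was 1.02 (SE 0.335, adjusted p = 0.0372); it stayed positive, at 0.85 to 1.34, in all 27 fits that left out 1 library and missed the threshold in 13 of them, with adjusted p up to 0.0776. In E3 the hypothalamus marker sum was 122 to 178 fed and 148 to 287 fasted, and the arcuate genes other than Agrp and Npy summed to 17.5 to 23.9 fed and 21.2 to 34.7 fasted. In E1 the hypothalamus sum was 323 to 453 fed and 197 to 366 fasted. The medians of the hypothalamus sum were 141 fed and 222 fasted in E3, and 360 fed and 298 fasted in E1. Their part in the Cartpt values was not tested.

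The receptors showed no called response to fasting. Mc3r had log2 changes of 0.24, -0.09, 0.78 and -0.34 in E1 WT, E1 KO, E3 WT and E3 KO, and 0.12 (SE 0.153, 95% interval -0.19 to 0.43, adjusted p = 0.571) over both lines. Mc4r had -0.20, -0.32, 0.58 and 0.05, and 0.01 over both lines (SE 0.139, -0.27 to 0.30, adjusted p = 0.956). The lines differed in the Mc4r response by 0.57 (SE 0.254, adjusted p = 0.124), and by 0.68 with an adjusted p of 0.0466 without fasted E3 KO 3. In E3 WT the Mc4r libraries were 2.16, 3.01 and 1.83 fed and 4.16, 3.54 and 2.72 fasted, with overlap. Of the 16 member tests within a line and genotype, 4 were called, 5 had an unadjusted p under 0.05, and DESeq2 called 5. Over all genes the shares called by edgeR were 5.27%, 34.9%, 19.9% and 0.505% in E1 WT, E1 KO, E3 WT and E3 KO. Genes at an unadjusted p under 0.05 numbered 3529 of 14877, 6657 of 14807, 5073 of 14534 and 1918 of 14663. By DESeq2, 1453 genes were called in E1 WT and 405 in E3 KO. Its counts in E1 KO and E3 WT are not given here.

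**Figure D5:**
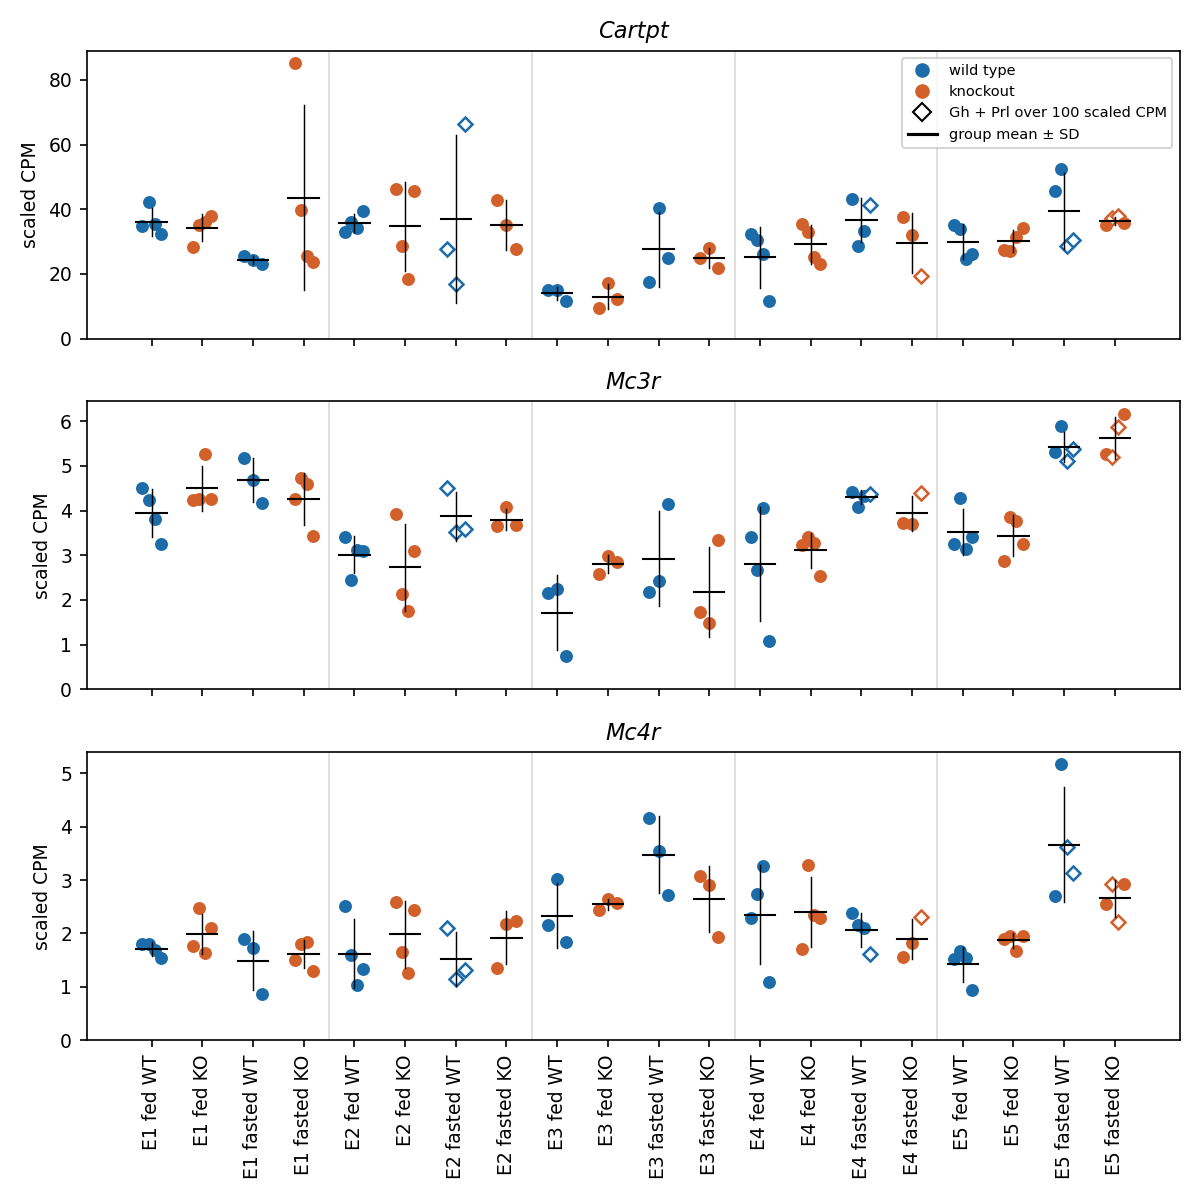
Cartpt, Mc3r and Mc4r in scaled CPM in every library, by line, feeding and genotype, with group means and SDs; open diamonds are libraries with Gh + Prl over 100 scaled CPM. The highest Cartpt value, 85.2, is a single fasted E1 KO library, and Mc3r in fasted E5 lies at 5.12 to 6.17 against 2.88 to 4.28 in fed E5.

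In E2, E4 and E5 fed and fasted levels are given without a test. Pomc in fed libraries of these lines had a median of 19.9 (2.76 to 43.9). The fasted libraries at or under the Gh + Prl threshold had a median of 13.9 (5.87 to 34, n = 12). The lines were not alike in this: fasted E2 KO libraries had 12.1, 13.8 and 8.41, of which 1 lay within the fed E2 range of 13.2 to 43.9 and the others below it, whereas fasted E5 libraries under the threshold had 14 to 34 against 13.3 to 27.9 fed. Cartpt was 11.6 to 46.3 fed and 16.9 to 66.4 fasted, with medians of 32 and 35.2. Mc3r was higher in every fasted E5 library (5.12 to 6.17) than in every fed one (2.88 to 4.28), in both genotypes. The same held for Mc4r in E5: 2.21 to 5.18 fasted and 0.943 to 1.96 fed. Between the same groups thalamus markers summed to 786 to 1850 fed and 549 to 864 fasted, choroid plexus markers to 11.7 to 22.4 fed and 21.4 to 3170 fasted, and hypothalamus markers to 357 to 494 fed and 370 to 681 fasted. Their part in the receptor values was not tested. Over E2, E4 and E5 the medians were 3.24 fed and 4.39 fasted for Mc3r, and 1.8 fed and 2.21 fasted for Mc4r.

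The wider melanocortin pathway was read from a list of 45 genes, of which 42 could be tested over E1 and E3 (Asip, Mc1r and Mrap were not tested). With fasting, 5 rose and 6 fell, against 17.5% and 15.2% of all genes; the median log2 change of the list was -0.004, and that of all genes 0.018. Among ligands and antagonists, Pomc fell and so did Agrp, by 0.40 on the log2 scale (SE 0.105, adjusted p = 0.00485). By line, the Agrp change was -0.52 in E1 WT, -0.76 in E1 KO, -0.35 in E3 WT and 0.18 in E3 KO; of these E1 KO was called (adjusted p = 0.00211), and the line difference of 0.55 was called as well (adjusted p = 0.0366). The annotated Agrp gene spans chr8:105566698-105637393 and overlaps 7 other genes, 5 of them on the other strand, so its count may hold reads of others. None of the 4 measured receptors was called. Of 6 accessory genes, Mrap2, a partner of Mc4r, fell by 0.27, and Adcy3, the adenylyl cyclase that makes cyclic AMP in primary cilia, fell by 0.36. Of 8 peptide processing genes, 2 rose: Cpe, the carboxypeptidase that trims propeptides, by 0.37 (adjusted p = 1.33e-05), and Scg2, a granule protein, by 0.25. The Scg2 estimates were 0.12 and 0.01 in E1 WT and KO and 0.60 and 0.37 in E3 WT and KO, and the line difference of 0.41 was called (adjusted p = 0.042).

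Among inputs of Pomc neurons, the ghrelin receptor Ghsr rose by 0.48 and the insulin receptor Insr fell by 0.15. Among factors of Pomc neurons, Nhlh2 rose by 0.24 and Tbx3 fell by 0.37. Npy, the peptide that arcuate hunger neurons make along with Agrp, rose by 1.27 (SE 0.157, adjusted p = 2.48e-06). Over both lines none of the 6 genes downstream of Mc4r was called, nor was Gpr160, a reported CART receptor. Within a line and genotype, 4 of those 6 were called, and they are named here after their values were seen. Sim1, a transcription factor of paraventricular neurons, fell by 0.55 in E1 KO (adjusted p = 0.0171) and Prkar2b, a regulatory subunit of protein kinase A, fell by 0.22 (0.0254). In E3 WT the neurotrophin gene Bdnf rose by 0.56 (adjusted p = 0.0317) and Trh, which encodes thyrotropin-releasing hormone, rose by 0.66 (0.0137). The difference between lines was called for Sim1, at 0.72 (adjusted p = 0.0272), and for Bdnf, at 0.66 (0.0185). By line and genotype, 1 of 42 genes of the list was called higher and 3 lower in E1 WT, against 2.3% and 2.97% of all genes. The counts were 2 and 9 in E1 KO (18.3% and 16.6% of all genes) and 7 and 2 in E3 WT (11.5% and 8.43%). In E3 KO they were 0 and 0 (0.491% and 0.0136%), with 7 at an unadjusted p under 0.05, as were 1918 of all 14663 genes. The difference between E1 and E3 was called positive (E3 above E1) in 9 and negative in 1 of the 42, against 8.39% and 8.46% of all genes. In the 15 comparisons of genotype the edgeR test called no gene of the list, with 0 to 5 of its genes at an unadjusted p under 0.05 in each. Among the members, Pomc was called in fasted E2 by DESeq2 and in fasted E4 with no filter on low counts, as given above; calls by these alternatives for the rest of the list are not given.

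The genes most like each member were sought over the 72 libraries after each group's mean was taken off, as Pearson's r of log2 scaled CPM among 13089 named genes; libraries share their dissection and depth, so the values are descriptions. For Pomc they included Oacyl (0.812), Chgb (0.779), Myo15 (0.748) and Trp53inp1 (0.704). In the 63 libraries at or under the Gh + Prl threshold the 5 genes most like Pomc shared 0 with the 5 of all libraries: Bsx (0.723), Susd2, Lrrc23, Asb4 and Otp (0.665). Bsx is a homeobox factor of arcuate Npy and Agrp neurons, and Otp a hypothalamic homeobox factor. For Cartpt the leading gene was Sst, which encodes somatostatin (0.776), followed by Srp14, Pnck, Ache and Prmt2 (0.753). Mc3r led with Vat1 (0.738), Fam110a and Gabre, and the genes most like Mc4r included Wdr45b (0.642) and Higd1a (0.639). These lists also changed in the 63 libraries at or under the threshold. There the 5 genes shared 1 with the 5 of all libraries for Cartpt, 3 for Mc3r and 0 for Mc4r. Ache led for Cartpt (0.788), and Sst was not among its 5. By CPM of the library total, Cartpt shared 3 of 5.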

How the data were processed

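The authors deposited gene counts per library from hypothalamus RNA-seq aligned to mm10; HISAT2, Bowtie2 and edgeR are named, per the submitters' processing notes, and strand use is not given in the sources used here. The authors' deposited edgeR tables give log2 ratios (WT over KO) and adjusted p-values. E3 columns headed with other words for feeding were read by their table's name.

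Counts were tested as deposited with edgeR 4.0.16 in R 4.3.3: TMM scaling, a filter of 10 counts in a group's libraries and 15 in all, a quasi-likelihood test and Benjamini-Hochberg adjustment over all genes tested, called under 0.05. SEs and 95% intervals come from its F statistic. Likeness used a pseudocount of 0.5 and genes with a mean log2 of at least 1. DESeq2 1.42.0 and other alternatives are given further on. The fits were tested on simulated data. Replicates were compared in 96 pairs; the lowest chi-square per degree of freedom was 2.81, so none was counted as a duplicate. Intervals cover counting error and spread between libraries. Pathway genes named with values are Agrp, Npy and up to 10 called over E1 and E3. Sim1, Prkar2b, Bdnf, Trh, Prdm12, Nkx2-1 and Isl1 were added after their values were seen. The members and lists were chosen with earlier results of these data known. Some genes most like a member are not reported here.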

Additional observations from a re-analysis of the deposited data

Results flagged for a closer look

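In 48 sets of 4 libraries (4 genes in 12 groups), 4 held a library far from the other 3 by Dixon's test, of which chance alone gives about 1 in 20. Pomc was 1370 scaled CPM in fasted E5 KO 3, beside 14, 17 and 24.9, and 345 in fasted E5 WT 3, beside 18.8, 29.1 and 34; these libraries had 19500 and 4600 scaled CPM of Gh + Prl. Pomc was 26.3 in fed E1 WT 2, beside 20.7, 21 and 21.6; its Gh + Prl of 16.1 was the highest of the E1 libraries. Mc3r was 5.26 in fed E1 KO 3, beside 4.23, 4.25 and 4.27.

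The response to fasting differed between E1 and E3 for Pomc, by 1.24 on the log2 scale (edgeR quasi-likelihood test, adjusted p = 0.00437), and for Cartpt, by 1.02 (adjusted p = 0.0372), both as E3 minus E1 and both given above with their spread. Sequencing request, sex as read from Ddx3y, marker sums and line cannot be told apart in these differences.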

How the results depend on the processing

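Of 1808 alternative values for 104 results, 1769 kept their direction and their side of the threshold. A sign change was counted where the value was called or exceeded its SE. Most of the 104 results were not called, so keeping their side meant staying uncalled. Leaving out 1 library lost a call in 19 values, all of Cartpt. For the values that changed, the cause was not tested. DESeq2 called 1 member in genotype E2 fasted, 1 in fasting E3 KO and 1 in the E2 interaction, where edgeR called 0; with no filter on low counts 1 was called in genotype E4 fasted. Without the libraries over 100 scaled CPM of Gh + Prl, Pomc turned to -0.34 (E4 fasted genotype), -0.44 (E5 fasted), -0.26 and -0.14 (E4 and E5 over feeding), and -0.07 and -0.49 (E4 and E5 interactions); for E2 fasted no WT would be left, so this was not run for E2. Leaving out 1 library moved Pomc from -1.11 to 3.7 (E4 fasted), -2.51 to 3.69 (E5 fasted), -0.51 to 1.67 and -1.15 to 1.69 (over feeding), and -0.81 to 3.95 and -2.56 to 3.66 (interactions), each negative without KO 3 of the fasted group. It moved Cartpt with fasting from -0.63 to -0.49 (E1 WT), -0.21 to 0.55 (E1 KO), 0.61 to 1.2 (E3 WT) and 0.85 to 1.34 (E1 against E3). Members called ranged from 1 to 2 in E1 WT, 0 to 1 in E3 WT, 1 to 3 in E1 against E3, 0 to 1 in genotype E2 fasted and 0 to 1 in the E2 interaction. Over all genes the same fits called 98 to 2566, 902 to 3764, 2092 to 3494, 0 to 772 and 0 to 28, in that order. Replicate numbers did not pair the libraries (correlations of same-numbered deviations -0.31 to 0.46); with the replicate block 32 of 32 member values kept their call, Cartpt in fasting E3 WT being 0.92 (adjusted p = 0.0347). Genes called with the block were 1633 against 2891 in fasting E3 WT, 19 against 74 in fasting E3 KO, 0 against 202 in the E3 interaction and 1 against 0 in genotype E3 fed. DESeq2 called 2 genes in genotype E1 fasted, 109 in E2 fasted, 107 in E3 fed, 539 in E3 fasted, 4 in E4 fed, 19 in E4 fasted, 1 in E5 fed and 21 in E5 fasted, each 0 by edgeR; it called 1453 in fasting E1 WT (784 by edgeR), 405 in fasting E3 KO, and 25, 1098, 2 and 2 in the interactions of E2 to E5. Both feeding states in 1 model gave 4 genes in genotype E2 fasted and 605 in E3 fasted. No filter on low counts gave 1 in genotype E3 fed, 169 in E4 fasted and 115 in fasting E3 KO. With the GC trend taken out, an alternative chosen after seeing the data, fasting E3 KO had 41 and the E3 interaction 0. Without pituitary-rich libraries E4 had 19 (fasted) and 5 (over feeding), and wild types alone gave 1624 of 5064 in fasting E1 and E3. Low counts limit Mc3r and Mc4r, with as few as 12 and 5 reads in a library.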

Other observations

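The authors' deposited tables give log2 ratios of WT over KO between -2.949 and 0.603 for the members in 8 comparisons; the value of -2.949 is Pomc in fasted E4. Mean transcript GC content was 57.3% for Pomc, 52.4% for Mc3r, 51.8% for Cartpt and 45.1% for Mc4r.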
